A study of Mus musculus with 15 samples.

Results

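The 30 genes described here are markers of the visceral and parietal endoderm. They were chosen by name, and their Ensembl identifiers, without version numbers, were matched to GENCODE M21 symbols. All 30 were found among the 55471 gene identifiers of the count tables, and all are annotated as protein coding. Poly(A) RNA had been sequenced from E14 mouse embryonic stem cells (mESCs) and from embryoid bodies (EBs), floating clumps in which these cells differentiate, in 15 libraries that form 5 groups of 3. Wild-type mESCs were nontreated or received 500 nM dTAG-13 for 72 h, and mESCs of an NSD1-dTAG knock-in line were nontreated. EBs of the same knock-in line were collected after 6 days of differentiation, either without dTAG-13 or with 500 nM dTAG-13 for the whole 6 days. The mESCs were kept in medium with LIF and inhibitors of MEK and GSK3, and the EBs were grown in a serum-containing medium. dTAG-13 is a small molecule that brings a protein with a dTAG degron to the cereblon ubiquitin ligase for degradation, and NSD1 is a methyltransferase of histone H3 lysine 36.

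Both EB groups carry the tagged NSD1, so the nontreated EBs are the control for the compound but not for the tag. Because neither EBs of wild-type cells nor knock-in mESCs given the compound are analysed here, an effect of dTAG-13 in EBs cannot be told apart from an effect of losing NSD1. The labels do not say whether the knock-in line is a single clone. The libraries of a group are labelled biological replicates with no further detail, so p-values reflect only how far these samples differ, which may be partly technical. Degradation acts on the protein, and transcript counts do not check it.

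Extraembryonic endoderm arises from the primitive endoderm of the blastocyst, which is set apart from the epiblast by GATA factors. Its visceral branch surrounds the epiblast, takes up maternal proteins through large endocytic receptors and secretes lipoproteins and carrier proteins much as liver later does. Its parietal branch migrates over the trophoblast and lays down a thick basement membrane. In EBs a layer of endoderm forms on the outer surface. Several of the genes are also active in other cells, for example Gata4, Gata6 and Foxq1 in embryonic endoderm or mesoderm, Pdgfra in paraxial mesoderm and Apoe in many cell types.

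Upstream sequences are shown for 5 genes whose values carry the comparisons below. Cubn and Afp represent the endocytic and secretory programmes, Fgb is a liver-type secretory gene of the same programme at a low level, Slc39a8 was higher in the dTAG-13 EBs, and Pdgfra had the lowest fold change. Each line gives the 250 bases that precede a transcription start in RefSeq's annotation of GRCm38.p6, 5′ to 3′ on the gene's strand. None of these windows overlaps a GENCODE exon. They end 0 to 63 bases before the GENCODE start. Capitals mark GTTAAT, a core sequence of HNF1 binding sites, on either strand, and occur in Afp and Fgb. The windows are chr2:13491877-13492126 (minus strand) for Cubn, chr5:90490464-90490713 (plus) for Afp, chr3:83049864-83050113 (minus) for Fgb, chr3:135825029-135825278 (plus) for Slc39a8 and chr5:75152001-75152250 (plus) for Pdgfra.
Cubn: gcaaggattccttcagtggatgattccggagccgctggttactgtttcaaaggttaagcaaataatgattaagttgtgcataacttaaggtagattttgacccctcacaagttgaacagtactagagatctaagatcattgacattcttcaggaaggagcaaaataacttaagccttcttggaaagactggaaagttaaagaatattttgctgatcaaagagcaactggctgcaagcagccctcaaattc
Afp: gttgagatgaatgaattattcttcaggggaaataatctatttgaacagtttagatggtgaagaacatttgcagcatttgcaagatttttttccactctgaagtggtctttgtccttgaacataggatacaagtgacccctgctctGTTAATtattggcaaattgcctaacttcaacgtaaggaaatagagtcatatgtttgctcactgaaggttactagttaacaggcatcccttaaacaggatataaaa
Fgb: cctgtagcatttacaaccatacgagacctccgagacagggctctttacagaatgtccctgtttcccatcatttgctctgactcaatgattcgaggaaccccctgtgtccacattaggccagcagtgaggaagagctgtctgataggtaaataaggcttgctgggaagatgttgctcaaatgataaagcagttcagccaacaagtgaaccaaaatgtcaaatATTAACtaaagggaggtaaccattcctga
Slc39a8: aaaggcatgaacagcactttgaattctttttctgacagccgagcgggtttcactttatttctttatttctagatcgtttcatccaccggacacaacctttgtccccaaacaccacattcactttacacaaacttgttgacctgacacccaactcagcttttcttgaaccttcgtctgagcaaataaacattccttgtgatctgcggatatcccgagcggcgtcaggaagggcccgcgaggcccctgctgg
Pdgfra: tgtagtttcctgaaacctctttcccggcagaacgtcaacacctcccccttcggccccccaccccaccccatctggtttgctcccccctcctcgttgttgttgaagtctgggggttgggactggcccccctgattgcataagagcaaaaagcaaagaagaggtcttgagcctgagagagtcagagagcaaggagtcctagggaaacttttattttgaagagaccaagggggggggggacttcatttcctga

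RefSeq windows were searched for 21 of the 30 genes, and genes on chromosome 18 (Gata6 and Ttr) were not searched. Some of these windows overlap GENCODE exons, most of all those of Apoa4 (250 of 250 bases), Apom (249), Apoc2 (109) and Fga (77). Across these 21, GTTAAT occurred upstream of Apoc2, Afp, Fga and Fgb, which is 4 of 21, and in 6.43% of the 32851 windows of the same length in the table. The GATA core AGATAA occurred upstream of Hnf4a only, 1 of 21, against 9.99% of all windows. The forkhead sequence TGTTTAC occurred upstream of Apoa2 and Rbp4, 2 of 21, against 3.17%. The HNF4 sequence CAAAGTCCA occurred in 0 of 21 and in 0.384% of all windows. TATAAA occurred upstream of Cited1, Apoa2, Apob, Afp and Srgn, 5 of 21, against 12.4%. Both strands were searched, and only the window nearest to the GENCODE start was used for a gene with several. Some of the genes are neighbours: Fgg, Fga and Fgb lie within 42.1 kb on chromosome 3, Apoa1 and Apoa4 within 14.9 kb on chromosome 9, and Apoc2 and Apoe within 27.6 kb on chromosome 7.

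Gene counts per library ranged from 18704591 to 29103958. Within the nontreated EBs, library 3 differed most from the others: the chi-square over its degrees of freedom, which is near 1 for sampling noise alone, was 44.3 and 35.9 against libraries 1 and 2, which gave 12.8 between them. Within the dTAG-13 EBs the same measure was 51.8 and 54.9 for library 3 and 3.94 between libraries 1 and 2. Both libraries numbered 3 also had the highest share of ribosomal protein counts of their group, 6.34% against 5.08% to 5.38% and 6.57% against 4.91% to 5.10%, and the shortest read-weighted exon length, 5.48 kb against 5.81 kb to 5.84 kb and 5.50 kb against 5.92 kb to 5.93 kb. NSD1-dTAG mESC library 1, with 7.98% ribosomal protein counts against 4.75% to 4.94%, stood apart in the same way, as did, less strongly, library 1 of the nontreated (5.76%) and library 3 of the dTAG-13 treated wild-type mESCs (5.88%). EB results are therefore given with and without these libraries. ERCC spike-in counts were 0 in the EBs, so levels are relative to each library's total.

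Most of the endoderm genes were expressed in the EBs and nearly absent from the mESCs. Compared with NSD1-dTAG mESCs, nontreated EBs had higher transcript levels for 23 of the 25 genes that passed the low-count filter, and a lower level for 1, Trf. Among all 15193 genes tested, 59.5% were called at an adjusted p below 0.05 (33.1% higher and 26.3% lower). The median log2 fold change was 7.02 over the 25 genes, 6.08 when the 3 genes without any mESC count (Apoa4, Ttr and Fgb) were set to their lower bound, and 0.02 over all genes tested. Apoa2, Apoc2, Fga, Fgg and Thbd were not tested. Without EB library 3 and mESC library 1, 24 of 26 genes were called, Sox7 no longer and Thbd newly among them. Of all 15447 genes tested in that fit, 11314 were called. More cells of a type and more RNA per cell cannot be told apart in such bulk libraries.

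All 6 transcription factors and coregulators rose. Gata6, which starts the primitive endoderm programme, was at 0.0344, 0.18 and 0.326 counts per 1000000 gene counts (CPM) in NSD1-dTAG mESC libraries 1 to 3 and at 30.4, 42.1 and 19.0 CPM in the EBs, a log2 fold change of 7.28 (SE 0.50, adjusted p = 7.38e-06). Gata4, its partner in visceral endoderm, was at 0.163 to 0.275 CPM in these mESCs and rose by 6.08 (SE 0.28, adjusted p = 1.33e-06). Foxq1, a forkhead factor, rose by 8.08 (SE 0.55). Its single exon overlaps the opposite-strand gene A530084C06Rik, and reads of the pair cannot be told apart without the counted strand. The rises of Hnf4a, a nuclear receptor of visceral endoderm and liver (2.81), of Cited1, a coregulator (3.11), and of Sox7, a SOX factor (0.88, adjusted p = 0.0196), were smaller. The call for Sox7 was lost without EB library 1, without EB library 3 and without mESC library 1 or 3.

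All 4 endocytic genes rose, Cubn and Dab2 above and Lrp2 below the median of the set. Cubn, the cubilin receptor, went from 0.103, 0.18 and 0.163 CPM to 173, 113 and 194 CPM (log2 fold change 9.90, SE 0.34). Dab2, the endocytic adaptor, went from between 0.0814 and 0.172 CPM to 132, 87.7 and 170 CPM (9.86, SE 0.40). Amn, the membrane partner of cubilin, rose by 7.02 (SE 0.45), and Lrp2, the megalin receptor, by 5.77 (SE 0.39), from 1.86, 5.39 and 3.99 CPM to 289, 174 and 209 CPM. The EB and mESC groups did not overlap for any of these 4 genes, as for 66.3% of all genes tested.

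Secreted products ranged from strong rises to genes at the limit of counting. Ttr, the transthyretin carrier of thyroid hormone and of the retinol carrier, had 0 counts in all 9 mESC libraries and was at 9.77, 6.34 and 14.5 CPM in the nontreated EBs, at least 276-fold higher than in NSD1-dTAG mESCs (3 counts over the group as the floor). Apoa4, with 0 counts in the 9 mESC libraries, was at least 89.96-fold higher, and Fgb, the fibrinogen beta chain, at least 18.3-fold higher. Afp, the fetal counterpart of albumin, had 2 counts in the 3 NSD1-dTAG mESC libraries and 1451 in the EBs, a ratio of 722 (95% interval 200 to 5972, counting error only). Among the other carriers and apolipoproteins, the log2 fold change was 8.43 for Apob, 4.74 for Apoa1, 4.45 for Rbp4 and 1.81 for Apom.

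A pair of genes in the set did not mark differentiation. Apoe, a lipid carrier, was already at 615, 542 and 467 CPM in NSD1-dTAG mESCs and was at 665, 547 and 712 CPM in the EBs, with a log2 fold change of 0.10 (SE 0.16, adjusted p = 0.618). Trf, transferrin, fell by 1.36 (SE 0.23, adjusted p = 0.00111), from 6.46, 6.04 and 5.82 CPM to 2.68, 1.89 and 3.34 CPM. Its exons overlap the same-strand gene Gm20425, so its counts are uncertain.

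The remaining genes of the set that were tested also rose, given here as log2 fold changes. Slc39a8, a zinc and manganese importer, rose by 7.16, Srgn, the proteoglycan serglycin, by 7.15 and Ctsh, a lysosomal protease, by 7.10. Pdgfra, a growth factor receptor of primitive endoderm, rose by 4.65 and Plat, tissue plasminogen activator, by 4.31. In the nontreated EBs Plat was at 3.31 ± 0.197 CPM and Thbd, thrombomodulin, at 0.632 ± 0.268 CPM (SD, n = 3). Fga and Fgg, the other fibrinogen chains, had at most 2 counts in any nontreated EB library, and Apoc2 had 1 count over all 3. By level and change most of the visceral genes marked the EBs. Apoe was not called and Trf fell, while Apoa2, Apoc2, Fga, Fgg and Thbd did not pass the low-count filter with all libraries. Apoa2 averaged 0.223 CPM over the 6 EB libraries and 0.0862 CPM over the 9 mESC libraries. In plain CPM, Apoa2, Fgg and Thbd were higher in every nontreated EB library than in every NSD1-dTAG mESC library, as were 42.1% of all genes tested.

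Per transcript length, Apoe stood far above the rest, at a mean of 1169 transcripts per 1000000 (TPM) over the 6 EB libraries. Dab2 (65.0 TPM), Lrp2 (64.7 TPM), Slc39a8 (59.9 TPM) and Srgn (49.7 TPM) followed, with ranges over libraries that overlap. The order of the means differed between the groups: Dab2 was at 63.5 TPM and Lrp2 at 48.4 TPM in the nontreated EBs, and at 66.6 TPM and 81.0 TPM in the dTAG-13 EBs. Cubn (34.2 TPM), Amn (32.8 TPM) and Ttr (29.9 TPM) came next, again with overlapping ranges. Afp was at 16.6 TPM, Gata4 at 12.4 TPM and Gata6 at 11.4 TPM. At the lower end, Fgb was at 0.466 TPM, Fga at 0.0365 TPM and Apoc2 at 0.0270 TPM.

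**Figure D1:**
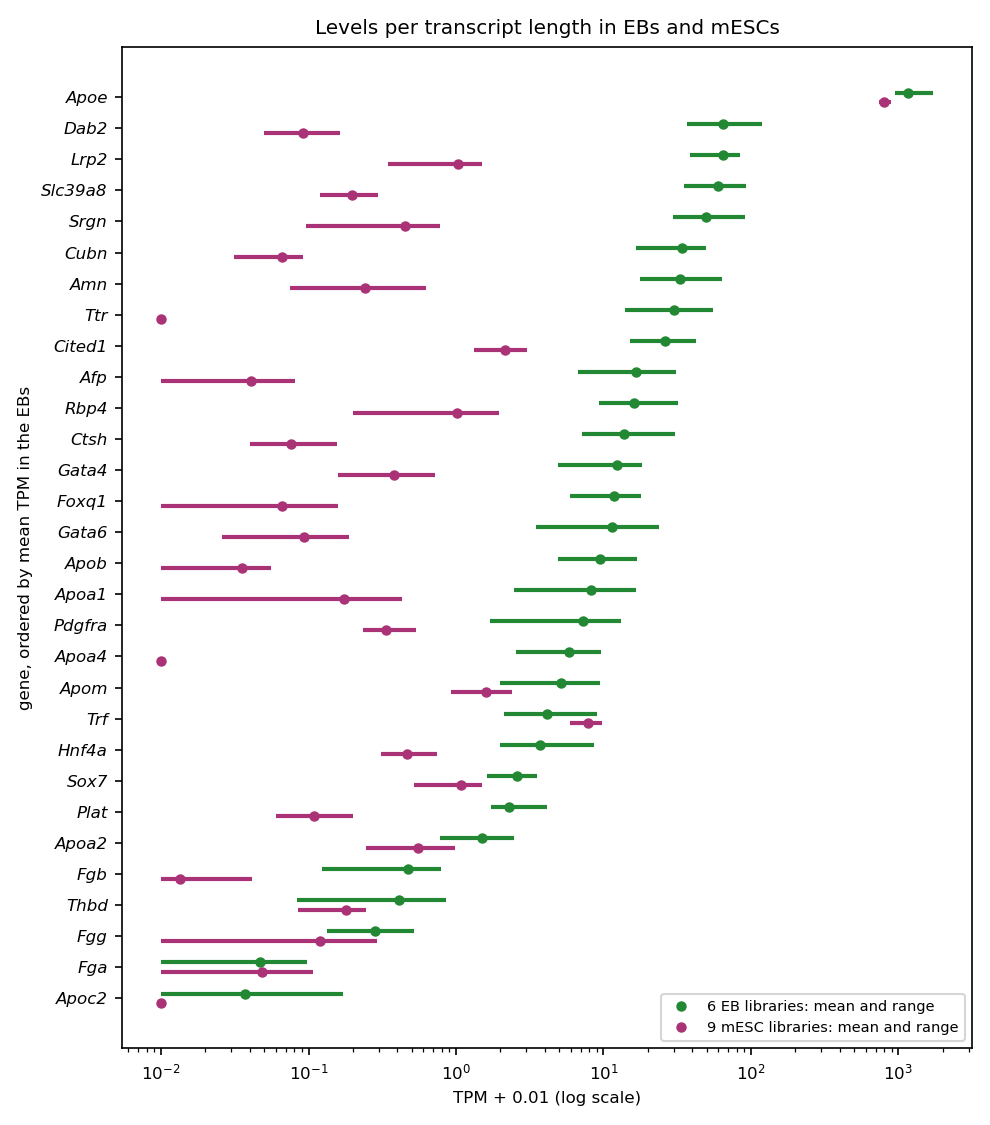
Mean (point) and range (line) of TPM + 0.01 on a log scale for the 30 genes, in the 6 EB libraries (green) and the 9 mESC libraries (purple), ordered by the EB mean. Most genes are separated between EBs and mESCs, Apoe is high in both, and Ttr and Apoa4 lie at 0 TPM in all 9 mESC libraries.

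Related genes moved in both directions. Of 17 other primitive and parietal endoderm genes, 16 were tested, 11 rose and 2 fell, against 33.1% and 26.3% of all genes tested, with a median log2 fold change of 5.01, or 4.50 with Stra6, which had no mESC count, at its lower bound. Among those that rose were the collagen chains Col4a1 (6.58) and Col4a2 (7.22), which form the parietal basement membrane, and Pth1r, the parathyroid hormone receptor of parietal endoderm (8.06). The 2 that fell were Nid1 (-2.68), a basement membrane linker, and Lamc1 (-0.92), a laminin chain. Of 21 other visceral endoderm transport and secretory genes, 13 were tested, 7 rose and 3 fell, and the median was 1.08. Those that rose include Spink1, a protease inhibitor (6.79), and Mttp, which loads lipid onto apolipoprotein B (3.71). Alb, albumin, had 0 counts in the 6 EB libraries. Of 8 anterior visceral endoderm genes, 7 rose and 1, Sfrp1, fell.

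Markers of other cell types were measured beside them, where 33.1% of all genes tested rose and 26.3% fell. Definitive endoderm markers, of which Foxa2, Sox17 and Hhex also stand in the endoderm lists above, rose for 5 of 5 tested and summed to 51.3 to 160 CPM in the nontreated EBs. Trophoblast markers rose for 5 of 6 tested, with a sum of 18.6 to 48.3 CPM. Elf5, with 16 counts in the nontreated EBs, and Prl3d1, at 0, were not tested. Paraxial mesoderm and mesenchyme markers rose for 3 of 3 tested and summed to 12.2 to 24.5 CPM, and of 5 endothelial and blood progenitor markers tested, 2 rose and 2 fell. Hepatocyte markers summed to 0.392 to 0.596 CPM with Cyp3a11, Tat and G6pc at 0, and macrophage markers to 0.186 to 0.298 CPM with Adgre1 and Tyrobp at 0. The 6 pluripotent cell markers tested fell, yet summed to between 1659 and 1788 CPM. The part of these other cell types in the rise of Gata4, Gata6, Foxq1 and Pdgfra was not tested.

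By their median, the EB replicates of the endoderm genes were less alike than those of all genes together. In the nontreated EBs the median coefficient of variation over 3 libraries was 30.04% for the 24 endoderm genes with a mean of at least 1 CPM, against 10.5% for all 13202 such genes. In the dTAG-13 EBs it was 71.5% for 23 endoderm genes, against 10.8% for 13187 genes. The most even gene was Plat in the nontreated EBs (5.94%) and Lrp2 in the dTAG-13 EBs (1.75%), and the most uneven were Afp (59.4%) and Apoa1 (103%). Such spread was not confined to this set. In the nontreated EBs, summed CPM ran from 1230 to 1687 for the set and from 51.3 to 160 for definitive endoderm markers. In the dTAG-13 EBs it ran from 1374 to 2521 for the set and from 135 to 325 for the other visceral endoderm transport and secretory genes. Pluripotent cell markers were more even, at 1659 to 1788 and 1331 to 1437 CPM.

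The spread had an order that most of the genes shared. In the dTAG-13 EBs, library 3 was the highest for 22 of 23 endoderm genes, against 43.6% of all genes, and exceeded the mean of libraries 1 and 2 by a median of 2.95-fold. The excess was 5.37-fold for Apoa1, 4.68-fold for Hnf4a, 4.58-fold for Afp and 4.35-fold for Ctsh. It was 1.38-fold for Slc39a8 and absent for Lrp2 (0.981-fold).

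In the nontreated EBs, library 3 was the highest for 17 of 24 genes, against 37.7% of all genes. It was below the mean of libraries 1 and 2 for 6 of 24 genes. Gata6 was at 0.524 times, Foxq1 at 0.491 times, Gata4 at 0.689 times and Pdgfra at 0.685 times that mean, and Lrp2 (0.900 times) and Plat (0.948 times) were closer to it. Definitive endoderm markers summed to 107, 160 and 51.3 CPM in nontreated EB libraries 1 to 3, and paraxial mesoderm and mesenchyme markers to 17.5, 24.5 and 12.2 CPM, so both were lowest in library 3 too. In the dTAG-13 EBs the sums were 20.8, 29.3 and 35.1 CPM and 5.005, 6.05 and 4.09 CPM. Library 3 of both groups also has the highest ribosomal protein share, and the part of these differences in the endoderm values was not tested.

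**Figure D2:**
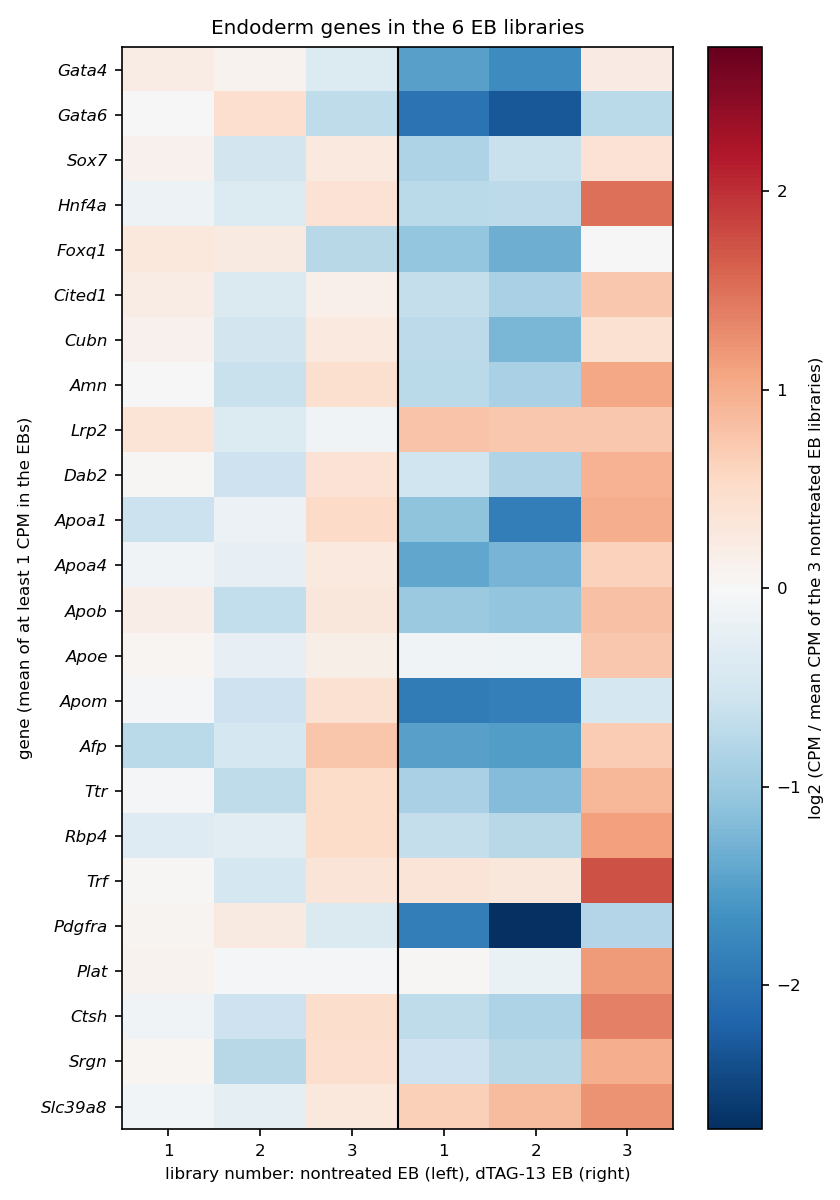
Heat map of log2 CPM of 24 endoderm genes with a mean of at least 1 CPM in the EBs, in nontreated EB libraries 1 to 3 (left) and dTAG-13 EB libraries 1 to 3 (right), relative to the mean of the nontreated libraries. Libraries 1 and 2 of the dTAG-13 EBs are below the nontreated mean (blue) for most genes and library 3 is above it (red), whereas Lrp2, Slc39a8 and Trf are above it in all 3.

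Against this spread, dTAG-13 EBs were compared with nontreated EBs. Of the 25 genes tested, 2 rose, Lrp2 and Slc39a8, and 0 fell. Of all 15236 genes tested, 6.76% were called (3.98% higher and 2.78% lower), so 2 of 25 is close to the background. Of the 25 genes, 11 had a log2 fold change above 0 and 14 below, with a median of -0.10 against -0.01 over all genes. Of these genes 2 lay wholly above the nontreated libraries and 2 wholly below, against 27.4% of all genes with groups that did not overlap. At an unadjusted p below 0.05, edgeR gave 2 higher genes of the set (Lrp2 and Slc39a8) and 3 lower (Gata6, Pdgfra and Apom). DESeq2 gave 3 higher, with Trf, and the same 3 lower, of which it called Pdgfra. Of all 15236 genes, 3313 had such a p in edgeR and 3187 in DESeq2, so these counts are also close to the background.

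Slc39a8 (ENSMUSG00000053897) is encoded on the plus strand of GRCm38 at chr3:135825279-135888572. It was at 83.0, 72.8 and 108 CPM in nontreated EB libraries 1 to 3 and at 138, 160 and 206 CPM in the dTAG-13 EBs. Every treated library was above every nontreated one. The log2 fold change was 0.91 (SE 0.19, adjusted p = 0.0315), or 1.89-fold. The call was lost without nontreated library 1 or 2 or without dTAG-13 library 1 or 2 (adjusted p from 0.0572 to 0.125). The log2 fold change stayed between 0.73 and 1.10 as each library was left out.

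Lrp2 (ENSMUSG00000027070) is encoded on the minus strand at chr2:69424340-69586065. It was at 289, 174 and 209 CPM in the nontreated EBs and at 382, 372 and 370 CPM in the dTAG-13 EBs. The treated libraries were close together and all above the nontreated ones. The log2 fold change was 0.72 (SE 0.17, adjusted p = 0.0472), or 1.65-fold. It was no longer called when any library other than nontreated library 1 was left out in turn (adjusted p from 0.0643 to 0.134). The log2 fold change stayed between 0.56 and 0.95 as each library was left out. Lrp2 is made by neural and other epithelia as well as by visceral endoderm. Its partner genes, Cubn, Dab2 and Amn, did not share its pattern. The part of other cell types in the values of Lrp2 was not tested.

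Cubn, which works with megalin, was at 173, 113 and 194 CPM without and at 98.1, 67.3 and 215 CPM with dTAG-13. Libraries 1 and 2 of the treated EBs lay below all nontreated libraries and library 3 above them, and the log2 fold change was -0.35 (SE 0.40, adjusted p = 0.682). Dab2 was at 132, 87.7 and 170 CPM without and at 88.9, 73.7 and 252 CPM with dTAG-13, a log2 fold change of 0.07 (SE 0.46, adjusted p = 0.955). Amn, the fourth gene of the group, had a log2 fold change of 0.09 (adjusted p = 0.948).

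**Figure D3:**
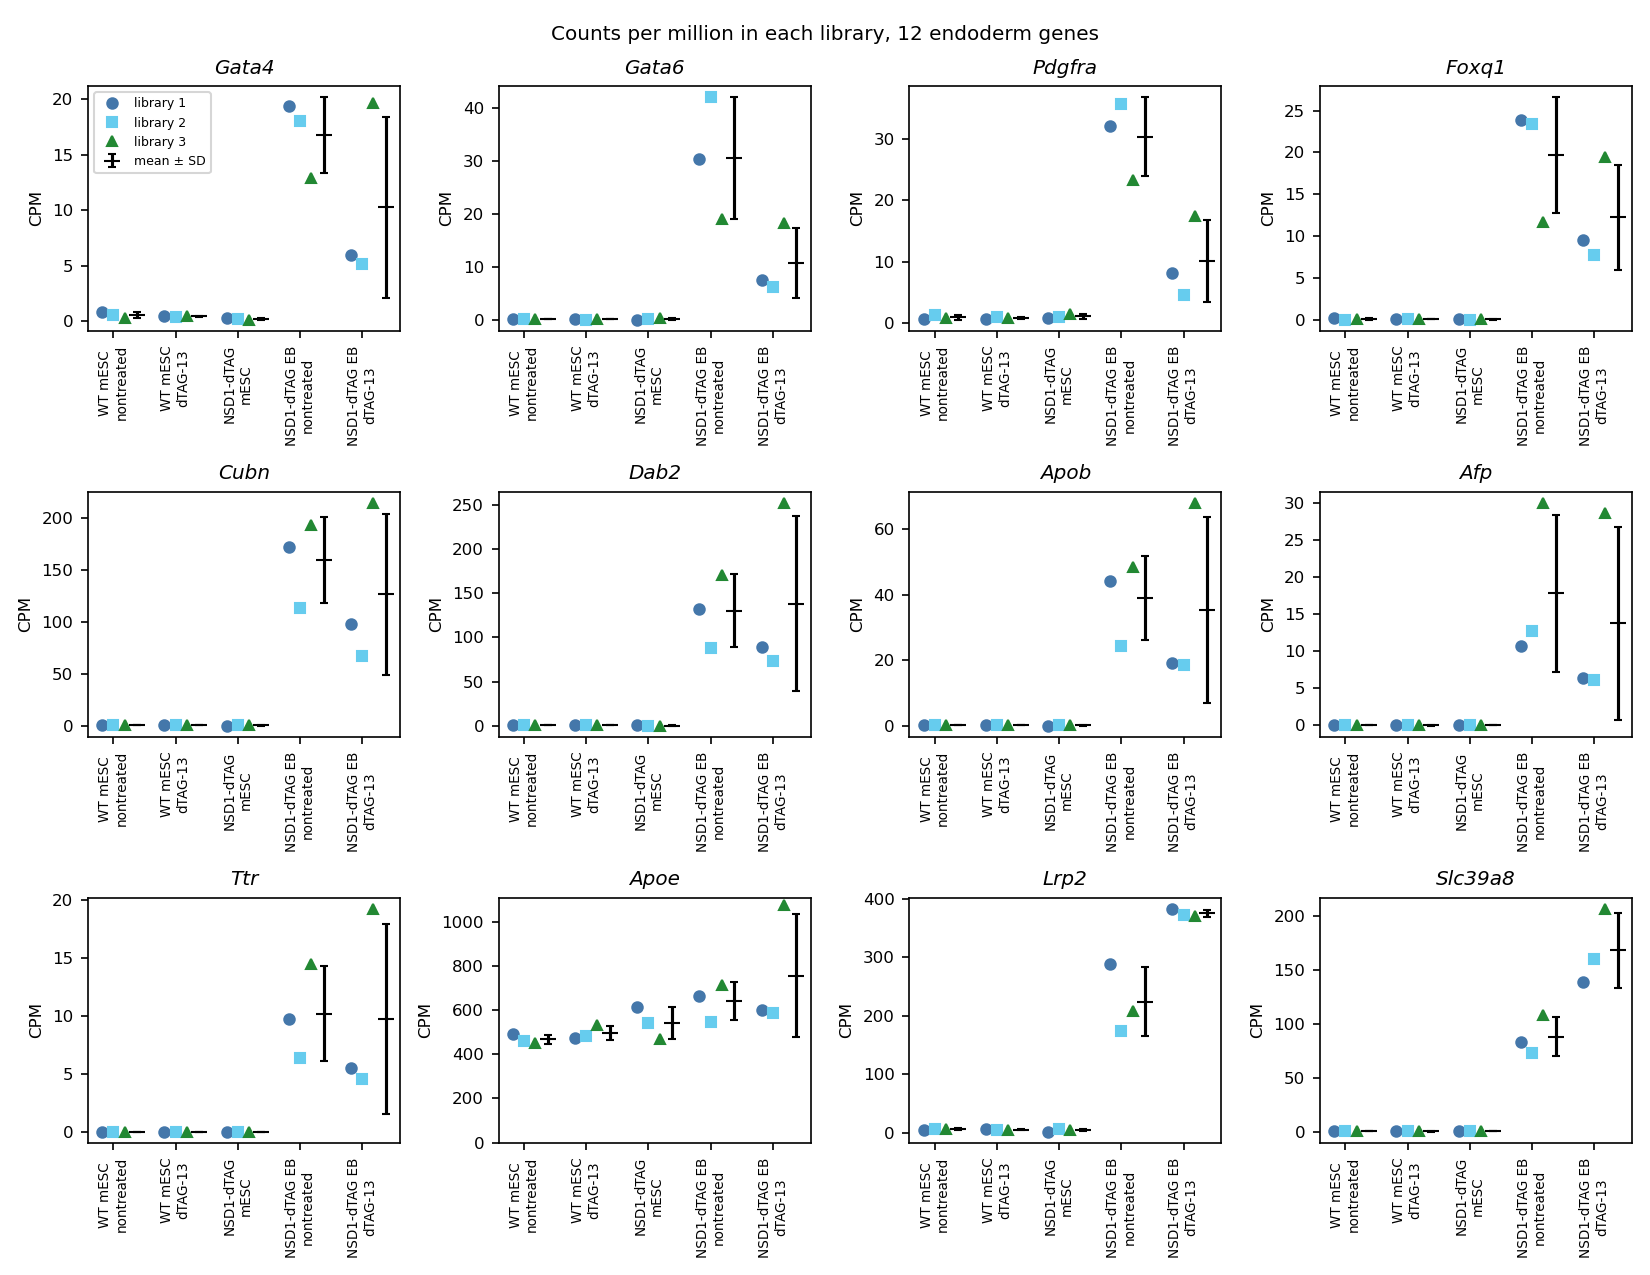
CPM in each library for 12 endoderm genes across the 5 groups, with marker shape and colour giving the library number and a black bar the mean ± SD of 3 libraries. The genes other than Apoe are near 0 CPM in the mESCs, library 3 (triangles) is the highest dTAG-13 EB library in every panel but that of Lrp2, and only Lrp2 and Slc39a8 have all dTAG-13 EB libraries above all nontreated EB libraries.

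The transcription factors lay lower in libraries 1 and 2 of the dTAG-13 EBs. Gata6 was at 30.4, 42.1 and 19.0 CPM without and at 7.59, 6.16 and 18.3 CPM with dTAG-13. All treated libraries were below all nontreated ones, with library 3 of each group close together. The log2 fold change of -1.52 (SE 0.43) had an adjusted p of 0.0769 and was not called. Gata4 was at 19.4, 18.02 and 12.9 CPM without and at 6.02, 5.15 and 19.7 CPM with dTAG-13, so that library 3 held the highest value of all 6 (log2 fold change -0.72, SE 0.47, adjusted p = 0.442). Foxq1 was at 23.9, 23.4 and 11.6 CPM without and at 9.50, 7.76 and 19.4 CPM with dTAG-13 (-0.70, SE 0.38, adjusted p = 0.344). Hnf4a, Cited1 and Sox7 had log2 fold changes of 0.41, -0.10 and -0.27, and none was called.

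Pdgfra (ENSMUSG00000029231, plus strand, chr5:75152292-75198215), whose exons overlap a microRNA and antisense transcripts, had the lowest fold change of the set. It was at 32.1, 35.7 and 23.2 CPM without and at 8.21, 4.59 and 17.5 CPM with dTAG-13, and the groups did not overlap. The log2 fold change was -1.60 (SE 0.42) with an adjusted p of 0.0618. DESeq2 called it (adjusted p = 0.0485), as did edgeR without the low-count filter (adjusted p = 0.00255), which also called Gata6 (adjusted p = 0.00444). Definitive endoderm markers (Foxa2 and Gsc) and paraxial mesoderm markers (Msgn1 and Twist1) fell in the same comparison. These were 2 of 5 and 2 of 3 tested, against 2.78% of all genes. The part of these markers' cell types in the values of Gata6 and Pdgfra was not tested.

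Among secreted products none was called. Afp was at 10.7, 12.7 and 29.96 CPM without and at 6.37, 6.16 and 28.7 CPM with dTAG-13, and the third library was the highest of each group (log2 fold change -0.39, SE 0.64, adjusted p = 0.786). Ttr was at 9.77, 6.34 and 14.5 CPM without and at 5.51, 4.52 and 19.2 CPM with dTAG-13 (-0.08, SE 0.55, adjusted p = 0.954). Rbp4, the retinol carrier, was at 4.47, 4.66 and 8.06 CPM without and at 3.68, 3.40 and 12.4 CPM with dTAG-13 (0.16, SE 0.51, adjusted p = 0.900). In each of the 3 genes the difference between libraries of the treated group was larger than the difference between the groups. Trf, the other carrier, had a log2 fold change of 0.94 (SE 0.42, adjusted p = 0.244).

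Of the 5 apolipoproteins tested, Apoa1, Apoa4 and Apob were lower with dTAG-13 in libraries 1 and 2 and higher in library 3, while Apoe was lower in library 1 only and Apom in all 3. Apoe was at 665, 547 and 712 CPM without and at 599.7, 588 and 1075 CPM with dTAG-13 (log2 fold change 0.21, SE 0.24, adjusted p = 0.682). Apob, the scaffold of lipoproteins, was at 44.1, 24.5 and 48.6 CPM without and at 19.3, 18.4 and 68.0 CPM with dTAG-13 (-0.17, SE 0.51, adjusted p = 0.898). Apoa4, a protein of triglyceride-rich particles, was at 3.09, 2.85 and 4.01 CPM without and at 1.25, 1.38 and 5.10 CPM with dTAG-13 (-0.38, SE 0.51, adjusted p = 0.735). For Apob and Apoa4, libraries 1 and 2 of the treated EBs were below all nontreated libraries and library 3 was above them. Apom, a carrier of sphingosine phosphate, had a log2 fold change of -1.27 (adjusted p = 0.136), and with the replicate number as a block it was called lower (-1.33, adjusted p = 0.0278).

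Fibrinogen stayed close to the limit of counting. Fgb was at 0.708, 0.463 and 0.855 CPM without and at 0.117, 0.261 and 0.579 CPM with dTAG-13 (log2 fold change -1.09, SE 0.52, adjusted p = 0.274). Fga was at 0.0373, 0 and 0.0743 CPM without and at 0, 0 and 0.0772 CPM with dTAG-13, that is at most 2 counts a library, and was not tested. Fgg was at 0.0746, 0.0712 and 0.0743 CPM without and at 0.235, 0.187 and 0.309 CPM with dTAG-13, at most 8 counts a library, and was not tested. Among the remaining genes, Srgn was at 30.6, 17.6 and 40.3 CPM without and at 20.02, 17.5 and 58.2 CPM with dTAG-13 (0.09, SE 0.48, adjusted p = 0.942), and Ctsh and Plat were not called.

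Set side by side by library number, the treated and nontreated EBs differed in sign. With number 1, 21 of 24 endoderm genes were lower with dTAG-13, against 45.4% of 13248 genes, and the median log2 difference was -0.73. With number 2, 20 of 24 were lower, against 51.0% of genes, with a median of -0.43. With number 3, 20 of 24 were higher, against 52.5% of genes, with a median of 0.58. The pattern lower, lower and higher was shown by 16 of the 24 genes, Gata4, Hnf4a, Foxq1, Cubn, Amn, Dab2, Apob and Ttr among them, and by 11.9% of all genes. Lrp2, Slc39a8 and Trf were higher with all 3 numbers, as were 28.6% of all genes. Gata6, Pdgfra, Apom and Afp were lower with all 3, as were 24.1% of all genes. With number 3 the log2 difference was only -0.050 for Gata6 and -0.062 for Afp. The deviations of same-numbered EB libraries from their group means correlated, as did those of libraries 1 and 2 across the groups. A block on the number added only Apom to the calls.

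Without library 3 of both groups, 14 of 26 genes were called, 2 higher and 12 lower, against 20.9% of 15463 genes (10.7% higher and 10.2% lower). The fit then compares 2 libraries with 2. The libraries left out were chosen because they differ in these same data. The p-values and smaller standard errors of this fit depend on that choice. Lrp2 (log2 fold change 0.69, adjusted p = 0.0474) and Slc39a8 (0.92, adjusted p = 0.000967) remained higher. Among those lower were Pdgfra (-2.43, adjusted p = 0.000609), Gata6 (-2.42, adjusted p = 0.000318), Gata4 (-1.76, adjusted p = 0.000318), Foxq1 (-1.47, adjusted p = 0.000505), Apoa4 (-1.19, adjusted p = 0.00862), Afp (-0.92, adjusted p = 0.00377), Apob (-0.88, adjusted p = 0.0410) and Cubn (-0.81, adjusted p = 0.0388). Cited1, Apoa1, Apom and Thbd were the others. Of the 25 genes tested in both fits, 8 turned from above to below 0, Hnf4a, Amn, Dab2, Apoe, Rbp4, Plat, Ctsh and Srgn, and none of these 8 was called in either fit. Leaving out only library 3 of the dTAG-13 EBs gave 6 calls, Slc39a8 higher and Gata4, Gata6, Apoa4, Apom and Pdgfra lower. Of all 15639 genes tested in that fit, 1148 were called. Leaving out only library 3 of the nontreated EBs gave 2 calls, Slc39a8 higher and Gata6 lower (adjusted p = 0.0498), and 1293 over all 15640 genes.

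**Figure D4:**
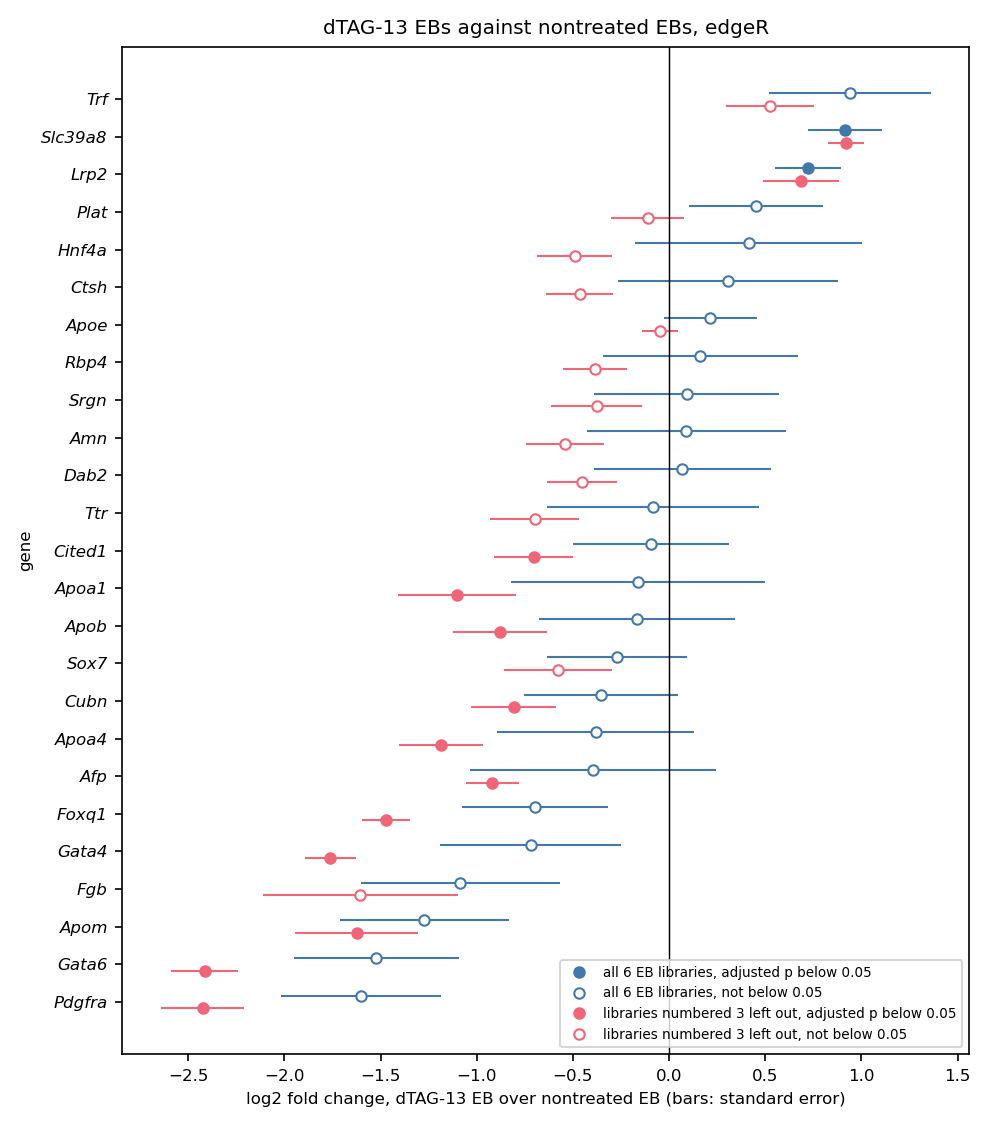
Log2 fold change (edgeR) with its standard error for 25 endoderm genes, dTAG-13 EBs over nontreated EBs, with all 6 libraries (blue) and with library 3 of both groups left out (red), filled where the adjusted p is below 0.05. With all libraries only Lrp2 and Slc39a8 are filled and error bars are wide, and without library 3 the number of genes below 0 goes from 14 to 22 of 25, and the bars are narrower for 24 of them, Lrp2 being the exception.

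Related genes in the same comparison were called in part, beside 3.98% of all genes higher and 2.78% lower. Values in brackets are log2 fold changes. Of 16 other primitive and parietal endoderm genes tested, 3 fell, Foxa2 (-2.54), a forkhead factor also of definitive endoderm, Fst (-1.79), an activin antagonist, and Snai1 (-1.77), a driver of epithelial-mesenchymal transition, and 0 rose. Of 13 other visceral endoderm transport and secretory genes, 1 fell, Rhox5 (-1.26), a homeobox gene, and 0 rose. Of 8 anterior visceral endoderm genes, 3 fell, Cer1 (-3.88), Lhx1 (-3.79) and Dkk1 (-2.69), and Lefty1 rose (1.29). Without library 3 of both groups the counts lower were 11 of 16, 4 of 13 and 4 of 8, against 10.2% of all genes. Lefty1 was again the only one higher, against 10.7% of all genes.

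Cer1, a Nodal and BMP antagonist, was at 61.4, 87.9 and 14.8 CPM without and at 1.64, 3.21 and 6.33 CPM with dTAG-13, and its groups did not overlap. Cer1, Lhx1 and Foxa2 are expressed by definitive endoderm and axial mesoderm as well. Definitive endoderm markers summed to 51.3 to 160 CPM without and to 20.8 to 35.1 CPM with dTAG-13. Trophoblast markers fell for 3 of 6 tested, among them Cdx2, and pluripotent cell markers for 4 of 6. Of 6 endothelial markers Tek rose and Cdh5 fell. Among all genes tested 3.98% rose and 2.78% fell. Hepatocyte and macrophage markers summed to at most 1.06 CPM and 0.425 CPM in any EB library. The part of these cell types in the endoderm values was not tested.

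In the mESCs few of the genes could be tested. Between NSD1-dTAG and wild-type nontreated mESCs, 10 passed the filter and 0 were called, against 1.86% of 13895 genes (0.547% higher and 1.32% lower). At an unadjusted p below 0.05, 1 was lower, Trf, against 1957 of all 13895 genes in either direction. Trf, at 8.65, 9.15 and 8.66 CPM in wild-type and at 6.46, 6.04 and 5.82 CPM in NSD1-dTAG mESCs, had groups that did not overlap and a log2 fold change of -0.47 (SE 0.10, adjusted p = 0.0778). DESeq2 called it lower, as did edgeR without NSD1-dTAG mESC library 1. Without that library and wild-type library 1, Trf and Lrp2 were lower and Apoe was higher, and 3123 of all 13762 genes were called.

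dTAG-13 in wild-type mESCs, which have no tag, called 0 of the 10 endoderm genes tested (0 also at an unadjusted p below 0.05) and 0 of all 13784 genes with edgeR, where 229 had an unadjusted p below 0.05, and 0 with DESeq2, where 79 did. Lrp2 was at 4.47, 7.06 and 6.15 CPM without and at 6.34, 5.35 and 3.85 CPM with dTAG-13 for 72 h (log2 fold change -0.18, SE 0.22). The difference between the effect of dTAG-13 in EBs and in wild-type mESCs was called for 0 of 25 genes, against 2.88% of 15855 genes (1.6% higher and 1.27% lower). At an unadjusted p below 0.05, 2 were higher, Lrp2 and Trf, and DESeq2 called 0, with 3 higher at that p. Of all 15855 genes, 2363 had such a p in edgeR and 2353 in DESeq2. For Lrp2 the difference of effects was 0.90 (SE 0.30, adjusted p = 0.152). Without library 1 of the nontreated EBs this difference was called for Lrp2 (1.12, adjusted p = 0.0467), and without library 3 of the dTAG-13 EBs for Pdgfra (-2.04, adjusted p = 0.0351). The times of exposure differ, and most of the genes are near 0 in mESCs, which limits this comparison.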

How the data were processed

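The deposited values are the authors' raw counts for each gene and library. Per the submitters' processing notes, tools were bcl2fastq 2.20.0.422, STAR (no version) and DESeq2 1.30.0, with GRCm38.p6 and mm10 as builds. Nothing on strand, counting settings or annotation release was given in the sources used here. Of the genes described, 9 overlap exons of another gene (7 on the opposite strand, 3 on the same), so their counts are uncertain.

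The test was the quasi-likelihood F test of edgeR 4.0.16 (R 4.3.3), after filterByExpr and TMM scaling, and p-values were adjusted by Benjamini and Hochberg's method over every gene tested. A gene was called at an adjusted p below 0.05. Only the groups compared entered each fit, and the difference of effects was fitted on 12 libraries. DESeq2 1.42.0, RLE factors, no filter, a replicate block and libraries left out were the alternatives. CPM is counts per 1000000 gene counts without ERCC spike-ins, and TPM uses merged GENCODE M21 exon lengths. A group with 0 counts was set to 3 counts for a lower bound. The scripts were tested on simulated data in which all genes had the same spread beyond sampling noise and no library stood apart. The larger spread of the endoderm genes in EBs was not simulated.

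Libraries with the same number deviated from their group means together. Correlations were 0.24, 0.31 and 0.38 between the EB groups and 0.70, 0.41 and 0.40 between NSD1-dTAG and wild-type mESCs. The numbers were taken to pair those libraries in the replicate block, from the data and not the labels. Libraries with different numbers also correlated, at 0.21 and 0.085 between EB libraries 1 and 2 and at 0.36 and 0.33 between mESC libraries 2 and 3. The correlations of EB library 3 or mESC library 1 with other numbers were negative. Pairing among EB libraries 1 and 2 and among mESC libraries 2 and 3 is therefore uncertain. In the other comparisons the libraries share only a number.

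The genes and lists were chosen with earlier results of these data known. Described in full are the genes called in the dTAG-13 EB comparison and, per role, the 3 with the highest mean CPM in EBs. From each other list up to 3 called genes were to be named by p-value, or the 2 with the highest CPM. Some of these were left out for length, and a few other genes were named after their values were seen.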

Additional observations from a re-analysis of the deposited data

How the results depend on the processing

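The number of endoderm genes called between nontreated EBs and NSD1-dTAG mESCs was 24, and 23 to 24 as each library was left out. Between dTAG-13 and nontreated EBs it was 2 in the reported fit, 4 without the low-count filter, 0 to 6 as each library was left out and 14 without library 3 of both groups. It was 0 without nontreated library 2, dTAG-13 library 1 or dTAG-13 library 2, and 6 without dTAG-13 library 3. Between NSD1-dTAG and wild-type mESCs it was 0, 1 with DESeq2, 0 to 1 as each library was left out (1 without the first of the NSD1-dTAG libraries) and 3 with library 1 of both groups removed. For the difference of dTAG-13 effects it was 0, 3 without the filter, 0 to 1 as each library was left out and 2, Gata4 and Pdgfra, with the 4 differing libraries removed (library 3 of both EB groups, library 1 of the nontreated and library 3 of the treated wild-type mESCs). The cause of these moves was not tested.

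With the replicate block, the EB comparison called 3 endoderm genes (2 higher and Apom lower), and 1834 of all genes against 1030. Between NSD1-dTAG and wild-type mESCs the block called 0 endoderm genes, and 785 of all genes against 259. It changed no other call of an endoderm gene. In the unpaired comparisons, nontreated EBs against NSD1-dTAG mESCs and dTAG-13 in wild-type mESCs, it called 24 and 0, with correlations of same-numbered libraries of -0.25, 0.19 and -0.35 and of -0.41, 0.34 and -0.35.

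Signs that turned belong to uncalled genes of the dTAG-13 EB comparison. Under the block the log2 fold change was -0.10 for Dab2, -0.020 for Rbp4 and -0.037 for Srgn. Without library 3 of both groups it was -0.45 for Dab2, -0.39 for Rbp4, -0.38 for Srgn and -0.047 for Apoe, and also -0.49 for Hnf4a, -0.54 for Amn, -0.11 for Plat and -0.46 for Ctsh. As each library was left out it ran from -0.71 to 0.38 for Dab2, from -1.08 to 0.15 for Apob, from -0.14 to 0.37 for Apoe, from -1.54 to 0.22 for Afp, from -1.06 to 0.27 for Ttr, from -0.73 to 0.50 for Rbp4 and from -0.69 to 0.39 for Srgn. Over all genes, the dTAG-13 EB comparison called 1030, 1686 with DESeq2, 182 to 1293 as each library was left out and 3233 without library 3 of both groups. The NSD1-dTAG and wild-type mESC comparison called 259, 636 with DESeq2, 1 to 1248 as each library was left out and 3123 with library 1 of both groups removed. The difference of dTAG-13 effects called 456, 799 with DESeq2, 915 without the filter, 202 to 763 as each library was left out and 1897 with the 4 differing libraries removed. dTAG-13 in wild-type mESCs called 0, and 16 without nontreated library 1 and treated library 3. Depth limits Fga, Fgg, Apoc2, Apoa2 and Thbd, which the filter removed.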
